A study of Mus musculus with 168 samples.

Results

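DNA damage sensing and repair genes were followed in neurons of mice with spinal muscular atrophy (SMA) and of littermate controls. The set holds 42 genes chosen by name, with earlier results of these data known. They take up 46 of the 39410 rows of the expression table, because Rnf8 is spread over 4 rows and Ercc2 over 2, while the other 40 genes have a row each. What separates the rows of these 2 genes is not stated, so they were tested one by one. All 42 had at least 1 row tested in a fit over every sample, and 39 or 40 of them passed the filter on low values within each neuron population. The genes that did not pass in some populations were Brca1, Bard1, Fancd2, Chek2 and Polh.

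SMA follows from a shortage of the SMN protein and kills motor neurons. The SMA mice (delta7) lacked both copies of mouse Smn1 and were homozygous for 2 human transgenes, SMN2 and SMNΔ7, while controls kept Smn1 on the same transgenes, so every group carried them. Ocular, facial, vagus, hypoglossal and lumbar motor neurons, and red nucleus neurons of the midbrain, were cut by laser from stained frozen sections at postnatal days 2, 5 and 10, and the cells of each tube were pooled for a Smart-seq2 library of polyA RNA. There were 34 mice (6 control and 9 SMA mice at day 2, 5 and 5 at day 5, 4 and 5 at day 10), and 168 libraries that gave 160 samples of 1 population from 1 mouse, in 36 groups of 3 to 7 mice.

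Cells meet damaged DNA with separate repair routes. Broken double strands are sensed by the Nbn and Rad50 proteins with the kinase Atm, marked for repair by Mdc1, Rnf8, Rnf168 and Trp53bp1, and rejoined by end joining or, mainly in dividing cells, by homologous recombination. Damaged bases and single-strand breaks, which a neuron meets daily through oxidation, go through Apex1, Parp1, Xrcc1 and the DNA ligases, bulky lesions through nucleotide excision repair, and polymerases such as Polk and Polh copy across lesions that remain. Inherited loss of several of these genes, among them Atm, Aptx and Tdp1, causes ataxia or other neurological disease, and some members, Rrm2b, Ddb2, Xpc, Polh, Polk and Ercc5, have been described as p53-induced.

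Values are RPKM (reads per kilobase of gene, scaled to the reads of the library), and differences are on the log2(RPKM + 1) scale, which understates the change of genes with low values. Smn1 followed the labels, at 4.32 to 63.3 RPKM in the 72 control samples and at most 4.24 in the 88 SMA samples, 70 of which were at 0. Chat, which makes acetylcholine, averaged 20.2 to 33.9 RPKM in controls of the 5 motor populations and 0.176 in the red nucleus, where the red nucleus factor Pou4f1 averaged 228. Depth ran from 0.342 to 16.3 M reads per library (median 5.89). Within a population replicates are separate mice, and p-values measure the spread between them. In the fit over all populations, samples of 1 mouse from several populations were treated as separate. In pooled cells, less RNA per cell and fewer cells with the RNA cannot be told apart.

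In control neurons the repair genes covered a wide range of levels. Nucleotide excision repair had the most abundant member, Ercc1, which with its partner cuts the damaged strand, at 76.7 ± 26.3 RPKM (mean ± SD over 72 control samples). It was followed by Rnf8 (its first row, 51.0 ± 22.2), a ubiquitin ligase that acts at breaks, Ddb1 (40.2 ± 10.2), part of the complex that recognizes ultraviolet damage, Lig1 (36.5 ± 26.3), the ligase best known for joining replicated DNA, and Xpa (29.4 ± 14.2), which verifies the lesion in excision repair. At the other end were the second row of Ercc2, at 0 in all 72 samples, a pair of further Rnf8 rows (0.0377 and 0.115 RPKM), Polh (0.153) and Brca1 (0.388). Fancd2 (0.417), the protein monoubiquitinated in the Fanconi pathway, and Brca2 (0.663) were also below 1. Of the 46 rows, 13 averaged at least 10 RPKM, 23 between 1 and 10, and 10 less than 1, and 26 lay above 2.65, the median of the 22270 genes tested over all populations.

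The roles differed in their levels as well. The 8 genes of base excision and single-strand break repair had a median of 12.3 RPKM over their means, from 1.13 for Ogg1, which removes oxidized guanine, to Lig1. The 5 end joining genes had a median of 8.31, with Prkdc, the catalytic subunit that Ku recruits, the lowest and Xrcc6, a Ku subunit, the highest (11.3). The 5 homologous recombination genes had a median of 1.29 and the 2 Fanconi genes, Fanca and Fancd2, of 0.780. At the median depth 1 RPKM of a gene as long as Polk, with 5553 exon bases in GENCODE M21, is about 32.7 reads. For the shorter Ogg1 it is about 12.9 reads, so members well under 1 RPKM rest on few reads.

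**Figure D1:**
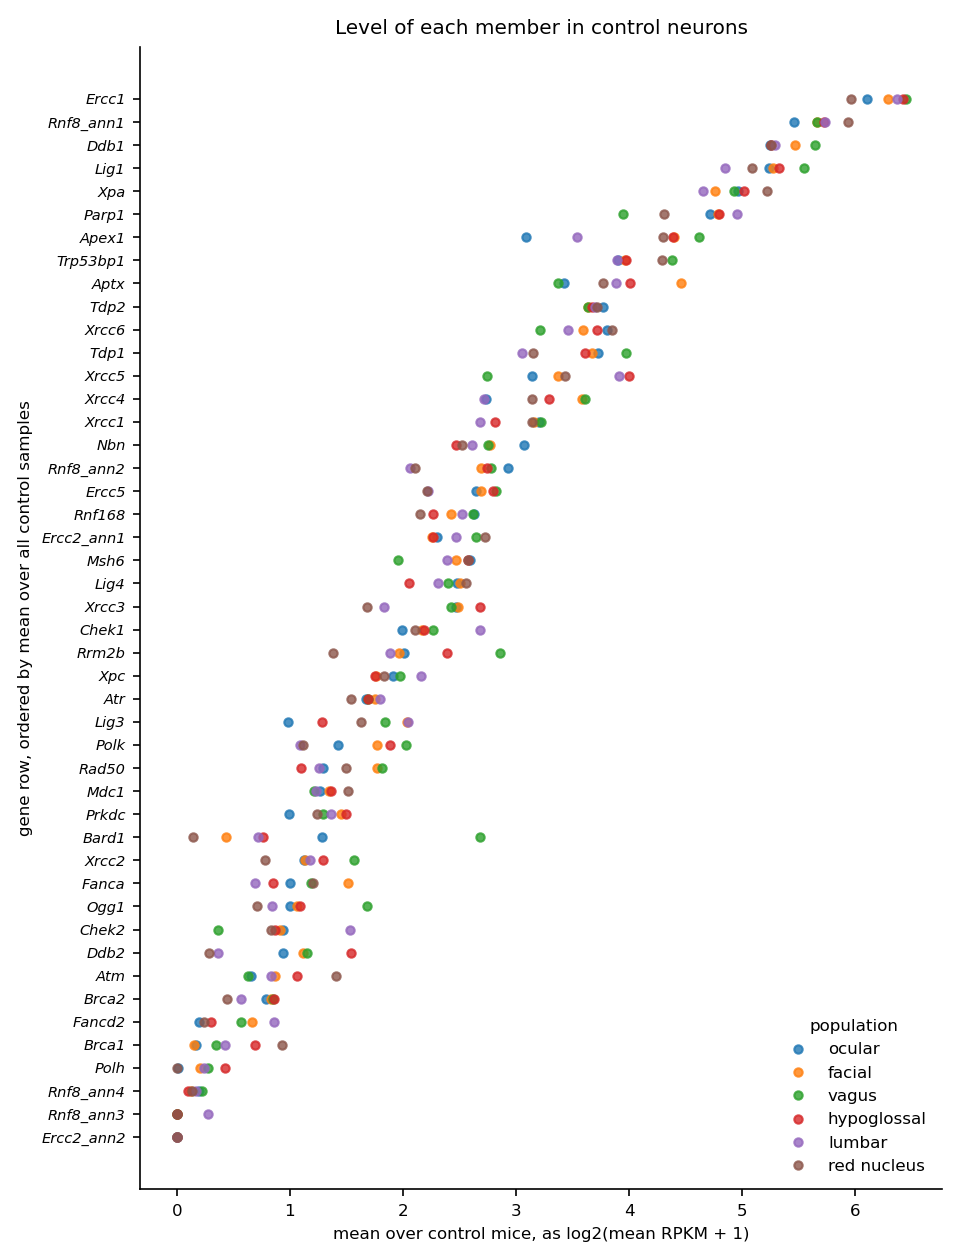
Mean level of each of the 46 gene rows in control mice, with a point for each of the 6 populations, on the scale log2(mean RPKM + 1) and ordered by the mean over all control samples. Ercc1 is at the top, the second row of Ercc2 lies at 0, and for Bard1 the vagus point stands to the right of the other 5.

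SMA was compared with control in each population at each age, 18 contrasts in all. Polk in facial neurons at day 10 was the only call among 723 tests of member rows, 0.138% of them. Over all genes, 0.129% of 296595 such tests were called. The call rule was an adjusted p under 0.05 in limma, with Benjamini-Hochberg adjustment over all genes of a contrast. At an unadjusted p under 0.05 there were 55 member tests (7.61%), 36 with SMA higher and 19 lower, beside 7.1% of all tests. By age these were 22 tests at day 2 (9.13% beside 8.61% of all genes), 16 at day 5 (6.64% beside 5.84%) and 17 at day 10 (7.05% beside 6.85%). The median difference of the members was positive in 15 of the 18 contrasts and ran from -0.10 to 0.30, while that of all genes was positive in 17 and ran from -0.01 to 0.13.

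**Figure D2:**
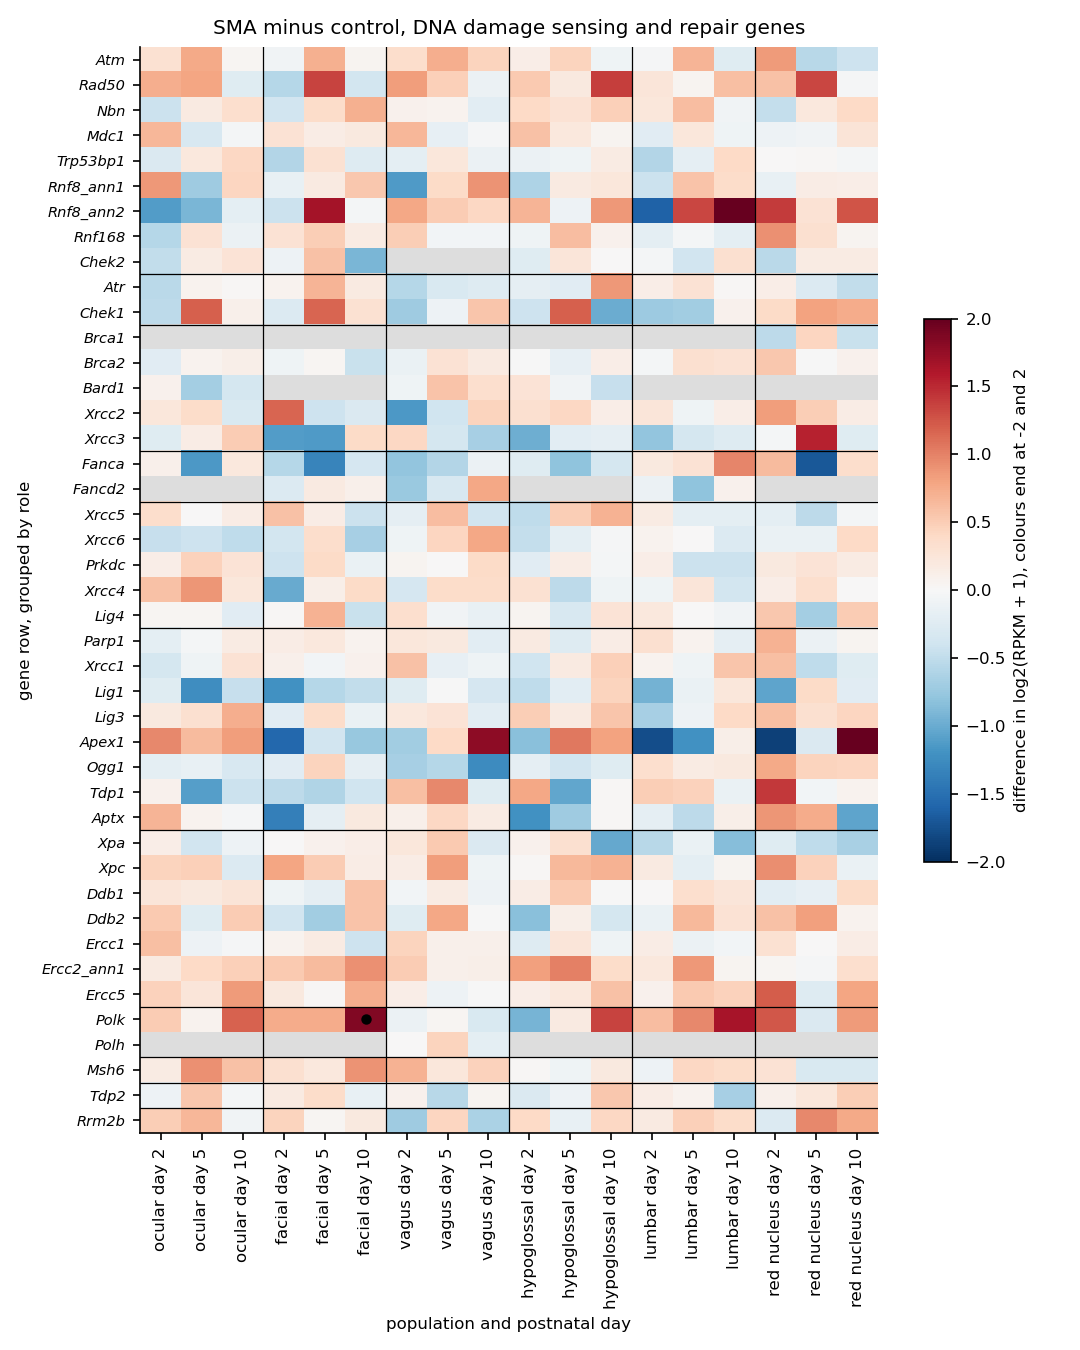
Difference in log2(RPKM + 1) between SMA and control mice for each tested row in the 18 contrasts of population and postnatal day, grouped by role from break sensing at the top to nucleotide supply at the bottom. Red is higher in SMA, blue lower, grey not tested, and the black dot marks the only call, Polk in facial neurons at day 10 (1.85).

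Polk codes for DNA polymerase kappa, a translesion enzyme that copies across bulky lesions, and lies at chr13:96480690-96542579 on the minus strand (GRCm38) with no exon bases shared with another gene. In facial neurons at day 10 it was at 1.37, 1.55, 1.57 and 2.07 RPKM in the 4 control mice. The 4 SMA mice had 7.52, 8.24, 8.69 and 9.51. Each SMA mouse lay above each control mouse, and the means were 8.49 ± 0.832 and 1.64 ± 0.298 (SD, n = 4 each). The difference was 1.85 on the log2 scale (SE 0.431, limma adjusted p = 0.0373), in a contrast where 0.666% of all genes were called. Facial libraries of that age had 2.76 to 9.29 M reads in controls and 2.91 to 3.71 in SMA.

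Lumbar motor neurons at day 10 gave a difference of nearly the same size. Polk was at 0.328, 0.414, 0.517 and 0.960 RPKM in the control mice and at 2.01, 3.20, 3.69, 4.48 and 7.13 in the SMA mice, again without overlap. The difference of 1.65 (SE 0.413) had a limma adjusted p of 0.0506 and was not called, where 0.775% of all genes were. It was called when the fit held only the 2 groups compared (adjusted p = 0.0431), and when any of mice 61, 76, 199, 211 or 240 was left out. It stayed uncalled in 25 of 30 fits without 1 mouse (limma adjusted p up to 0.158). The same held under 7 of 8 other settings (limma adjusted p up to 0.124). Hypoglossal SMA mice had 2.07, 4.14, 4.73, 6.67 and 7.72 RPKM beside 0.163, 1.24, 1.74 and 2.48 in controls, with 1 SMA mouse inside the control range (1.35, SE 0.359, limma adjusted p = 0.267, with 0.0728% of all genes called). In ocular neurons 4 SMA mice had 6.17, 7.45, 8.80 and 10.6, the fifth had 0.985, and the controls had 1.08, 1.34, 2.73 and 3.18 (1.19, SE 0.447, limma adjusted p = 0.587, with 0.359% of all genes called). The sum of 12 cycling cell markers was apart between the genotypes in both ocular and lumbar neurons of day 10. In ocular neurons it was 3.17 to 12.04 RPKM in controls and 12.09 to 17.9 in SMA mice, apart only by a small gap. In lumbar neurons it was 6.42 to 15.7 in controls and 24.5 to 32.5 in SMA mice. The markers did not move alike there. Control and SMA means were 3.11 and 8.68 for Ccnb1 and 1.95 and 5.64 for Cenpf. They were 1.27 and 0.679 for Mcm2 and 0.385 and 0.403 for Bub1. In ocular neurons of day 10 the sum of 5 motor neuron markers was also apart, at 935 to 1027 RPKM in controls and 455 to 878 in SMA mice. The sum of 2 red nucleus markers was 4.74 to 16.9 in controls and 9.07 to 177 in SMA mice. In lumbar neurons the motor neuron sum overlapped (1204 to 1801 and 1285 to 1465). The part of these sums in the Polk values was not tested.

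The red nucleus and the vagus nucleus showed less. Red nucleus SMA mice had 0.958, 2.58, 2.70 and 5.99 RPKM and controls 0, 0.817, 1.35 and 3.01 (0.85, 95% interval -0.20 to 1.90, limma adjusted p = 0.895). In vagus neurons SMA mice had 0.679, 0.764, 3.06, 3.57 and 3.59 and controls 1.60, 2.28, 3.40 and 4.12 (-0.30, 95% interval -1.12 to 0.52, limma adjusted p = 1). The groups overlapped in both, and 0.0124% and 0.00599% of all genes were called there. Whether the genotype difference in Polk varied between the 6 populations at day 10 was tested in the fit over all populations, and the limma adjusted p was 0.349 (unadjusted 0.00629).

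No Polk difference was called at the younger ages. In facial and lumbar neurons the differences were 0.74 and 0.62 at day 2 and 0.74 and 0.96 at day 5. Facial SMA mice had a median of 3.15 RPKM at day 2 (2.18 to 9.21, n = 7) beside 0.515, 1.77, 2.16, 2.28 and 3.34 in controls. At day 5 they had 4.38, 4.50 and 6.01 beside 0.884, 1.63, 1.77 and 10.5. Lumbar SMA mice had 1.12, 2.60, 3.69, 5.25 and 7.39 at day 5 beside 0.580, 0.933, 1.35, 2.07 and 2.08. Red nucleus mice of day 2 did not overlap, with 1.82, 2.02, 2.74 and 4.50 in SMA and 0, 0.201, 0.826 and 1.59 in controls (1.24, limma adjusted p = 0.448). Over the 18 contrasts the Polk difference was positive in 14. It had 8 unadjusted p-values under 0.05, more than any other member. SMA was higher in 7 of these and lower in 1, in hypoglossal neurons at day 2 (-0.93, limma adjusted p = 0.358). Contrasts of the same age share mice across populations, so these counts do not come from separate animals.

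**Figure D3:**
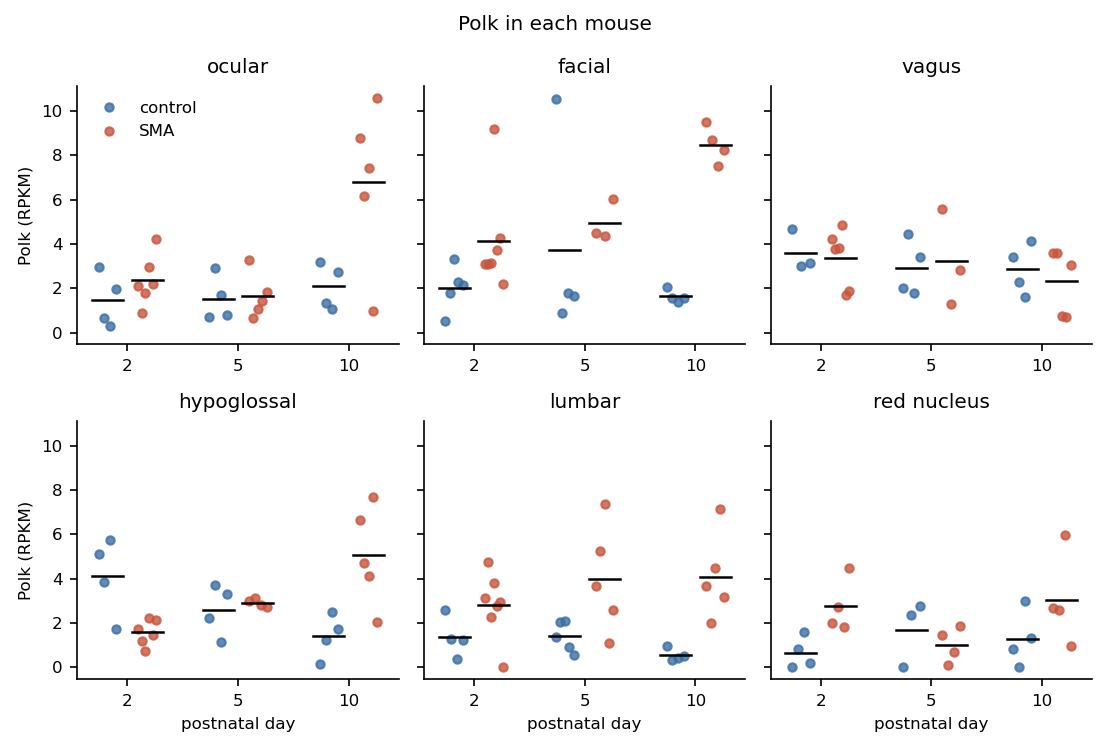
Polk in RPKM in each mouse, by population, postnatal day and genotype, with a black line at each group's mean. At day 10 the 4 facial SMA mice sit between 7.52 and 9.51, above every facial control mouse, the lumbar groups are also apart, and in vagus neurons the groups overlap.

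The facial call was near the threshold. Without a filter on low values the limma adjusted p was 0.0555, and with a pseudocount of 0.1 it was 0.0755. Without any 1 of the 8 facial mice of day 10 it was 0.0664 to 0.107. The difference stayed between 1.80 and 1.92 whichever mouse was left out. The call held in 19 of 27 fits without 1 mouse and under 7 of 9 other settings. The lowest limma adjusted p, 0.00469, came without facial control mouse 29, whose day 5 Polk value of 10.5 entered the variance. The limma adjusted p was 0.0248 without the 2 shallowest libraries and 0.0137 from the 8 facial mice of day 10 alone. Sums of astrocyte (7 genes), oligodendrocyte (9) and microglia markers (8) overlapped between the genotypes there, at 1252 to 1539 and 1299 to 1731 RPKM, 244 to 291 and 215 to 330, and 3.82 to 9.54 and 5.32 to 42.9 in control and SMA mice, and the cycling cell sum overlapped too (7.17 to 19.8 and 11.3 to 20.9). Of 19 motor neuron, red nucleus and cycling cell marker genes, 2 were apart there, beside 5.5% of all genes tested. Chat was lower in SMA mice (24.2 to 35.7 RPKM in controls, 13.4 to 24.0 in SMA). Cenpf, a mitosis gene, was higher (0.383 to 1.79 and 3.18 to 8.43). Their part in the Polk call was not tested.

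Since p53 response elements are a described feature of p53-induced repair genes, RefSeq promoter windows (GRCm38.p6, 250 bases before to 50 after a start site) were searched for the consensus p53 response element, named here only, on both strands: 2 decamers with 0 to 13 bases between them and no mismatch allowed. Windows were at hand for 33 members, 38 windows in all, and none held the element, beside 24 of 32851 windows of all genes (0.073%). Of the 6 p53-induced members only Polk, Polh and Ercc5 had windows, 4 in all, and Rrm2b, Ddb2 and Xpc were not searched. A lone decamer was in 2 of the 38 member windows (5.263%), 1 of them among those 4, and in 8.356% of all windows. The 250 bases before both annotated Polk starts are shown because Polk was the called member, with the decamer in capitals, 5′ to 3′ on the minus strand. The upstream one, chr13:96542580-96542829, ends at the start of the gene and holds no decamer. The other, chr13:96519188-96519437, lies inside the gene and holds 1, which begins at position -231 from that start. No match says only that these letters are not in the window.
Polk upstream start: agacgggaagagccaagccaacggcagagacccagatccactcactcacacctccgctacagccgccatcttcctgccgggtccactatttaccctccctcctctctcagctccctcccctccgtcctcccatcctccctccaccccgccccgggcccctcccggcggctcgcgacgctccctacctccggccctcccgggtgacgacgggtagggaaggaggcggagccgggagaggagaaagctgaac
Polk internal start: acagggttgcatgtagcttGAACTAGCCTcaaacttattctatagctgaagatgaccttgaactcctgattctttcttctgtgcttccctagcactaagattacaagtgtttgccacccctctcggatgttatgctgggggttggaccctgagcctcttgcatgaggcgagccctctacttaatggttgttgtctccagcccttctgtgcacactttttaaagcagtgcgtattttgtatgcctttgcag

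Of the p53-induced members only Polk was called, in 1 of their 93 tests (1.075%, beside 0.129% of the tests of all genes). At day 10 their median difference was 0.58 in facial, 0.37 in lumbar, 0.51 in ocular, 0.58 in hypoglossal and 0.76 in red nucleus neurons (5 tested in each) and -0.14 in vagus neurons (6 tested, 0 of them positive), beside medians of 0.01 to 0.13 over all genes. With 5 genes each such median is a single gene's difference, that of Ddb2 in facial and ocular, of Rrm2b in lumbar and red nucleus and of Ercc5 in hypoglossal neurons. Rrm2b, the ribonucleotide reductase subunit of resting cells, differed by 0.19 in facial (limma adjusted p = 0.994) and 0.37 in lumbar neurons (limma adjusted p = 0.790). Ddb2, which binds ultraviolet lesions, was at 0 in 3 of 4 facial control mice and 2 of 4 facial SMA mice of day 10, and in 2 of 4 ocular control mice, so its differences rest on few reads. Ercc5, the 3′ nuclease of excision repair, had its mice apart in ocular neurons at day 10 (4.15 to 6.14 RPKM in controls, 6.45 to 18.8 in SMA, 0.85, limma adjusted p = 0.741). Xpc, the sensor of distorted DNA, was apart in hypoglossal neurons (1.96 to 2.66 and 2.67 to 6.06, 0.69, limma adjusted p = 0.848).

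Break sensing and end joining gave no call in any contrast. Beside 7.1% of all tests with an unadjusted p under 0.05, the 8 sensing genes had 11 in 159 tests (6.918%), and the 5 end joining genes had 1 in 90 (1.111%). Atm differed by 0.05 in facial neurons at day 10 (95% interval -0.79 to 0.90) and by -0.23 in lumbar neurons (-1.07 to 0.60). Base excision and single-strand break repair had 13 in 144 tests (9.028%), nucleotide excision repair 10 in 126 (7.937%), and homologous recombination 4 in 66 (6.061%). Over the 6 day 10 contrasts the mice of both genotypes were apart for 7 of 241 member rows (2.905%), beside 3.56% of all genes, after 3 (1.245%) at day 2 and 8 (3.320%) at day 5, beside 1.87% and 3.75%. Besides Polk, Ercc5 and Xpc these were Msh6, a mismatch sensor, higher in facial SMA neurons (3.30 to 5.22 and 6.58 to 11.8 RPKM), Tdp2, which frees topoisomerase 2 from DNA ends, lower in lumbar SMA neurons (9.67 to 12.8 and 5.09 to 9.29), and Apex1 in the red nucleus. None of these passed the test (lowest limma adjusted p 0.429, for Msh6).

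Of 76 other genes listed by pathway, 3 of 1278 tests were called (0.235%, beside 0.129% of the tests of all genes), all higher in SMA. Trp53, the gene of p53 itself, was at 5.01, 6.38, 6.92 and 11.3 RPKM in facial controls at day 10 and at 16.4, 21.5, 26.5 and 35.1 in SMA mice (1.62, SE 0.301, limma adjusted p = 0.00487). In ocular neurons at day 2 it was at 0.509 to 4.09 in controls and 4.36 to 16.1 in SMA mice, groups that were apart by a small gap (1.72, SE 0.360, limma adjusted p = 0.0459), in a contrast where 0.132% of all genes were called. Leaving out 1 mouse ended this call in 21 of 28 fits, and another setting did in 4 of 9. At day 10 Trp53 was also apart, without a call, in ocular neurons (10.6 to 15.9 in controls, 17.4 to 27.6 in SMA mice). The same held in lumbar neurons (6.73 to 12.3 and 13.4 to 28.4). Of all genes, 3.42% and 4.23% were apart in these contrasts. In hypoglossal, vagus and red nucleus neurons of day 10 the Trp53 groups overlapped. Timeless, a replication fork protector, was at 24.8, 50.7, 52.2 and 83.7 in lumbar controls at day 10 and at 134, 151, 184, 214 and 268 in SMA mice (1.91, SE 0.459, limma adjusted p = 0.0378). The sum of the cycling cell markers was apart there as given above, with 8 to 12 of the 12 above 0. Its part in this result was not tested either. The Timeless call ended under 5 of 9 other settings and in 7 of 30 fits without 1 mouse.

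Between day 2 and day 10 of control mice 7 of 241 member tests were called (2.90%), beside 7.06% of all tests. Of these, 5 were falls and 2 were rises, where 3.67% of all tests were called lower and 3.38% higher at day 10. The falls were in single-strand break and base excision repair, in 5 of its 48 tests (10.417%). The 7 were in ocular, facial and red nucleus neurons, with 8.02%, 5.36% and 11.1% of all genes called there. In vagus, hypoglossal and lumbar neurons, where 1.02%, 5.11% and 12% of all genes were called, limma called no member (lowest adjusted p 0.0653, 0.0563 and 0.0631). At an unadjusted p under 0.05 there were 30 member tests, 11 higher and 19 lower at day 10, beside 19.6% of all tests.

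Lig1 fell in 2 populations. Facial control mice had 23.2, 42.9, 59.0, 75.7 and 79.6 RPKM at day 2 and 8.93, 12.1, 12.3 and 12.9 at day 10. Every mouse of day 10 was below every mouse of day 2, and the change was -2.07 (SE 0.444, limma adjusted p = 0.00445). In the red nucleus the values were 33.8, 51.8, 51.9 and 98.9 at day 2 and 6.81, 9.72, 12.9 and 24.9 at day 10, also apart (-2.08, SE 0.541, limma adjusted p = 0.0137). The change was negative in all 6 populations, from -0.88 in vagus to -2.08 in red nucleus neurons. SMA mice went from 6.34 to 47.9 RPKM in facial neurons at day 2 to 5.45 to 12.1 at day 10.

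Aptx, which removes AMP left on DNA ends by failed ligation, fell in facial neurons. Control mice had 19.3, 22.9, 34.3, 55.5 and 62.7 RPKM at day 2, and 4.11, 5.78, 11.2 and 15.0 at day 10 (-1.99, SE 0.543, limma adjusted p = 0.0270). In the red nucleus the same comparison gave 1.73 in the other direction (limma adjusted p = 0.0713). Xrcc1, the scaffold of single-strand break repair, fell in ocular neurons from 9.65, 12.1, 12.2 and 14.1 to 5.36, 5.42, 5.76 and 8.45 (-0.85, SE 0.250, limma adjusted p = 0.0321). The groups were apart for both genes.

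Apex1, the main nuclease at sites that have lost a base, fell in the red nucleus, from 11.0, 17.7, 33.6 and 36 RPKM at day 2 to 0, 0.460, 3.80 and 5.36 at day 10 in controls (-3.16, SE 0.788, limma adjusted p = 0.0103). The control sample at 0 is the shallowest library of the series, with 0.342 M reads, and without the 2 shallowest libraries the change was -2.71 with a limma adjusted p of 0.0479. SMA mice were at 10.8, 14.1, 14.7 and 21.1 at day 10, above all controls (2.61, SE 0.788, limma adjusted p = 0.488). The change of the genotype difference with age had a limma adjusted p of 0.639. Apex1 shares 61.7% of its exon bases with Pip4p1 on the opposite strand, and the sources used here do not say whether reads were counted by strand, so its values are uncertain.

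Both rises came in genes of other routes. Xrcc2, a gene of homologous recombination, rose in facial neurons from 0, 0.0851, 0.120, 0.245 and 0.814 RPKM to 1.11, 1.61, 2.89 and 3.22 (1.33, SE 0.381, limma adjusted p = 0.0363). Facial SMA mice already had 0.526 to 4.28 at day 2 and were at 0.773 to 2.41 at day 10, and their difference from controls at day 2 was 1.17 (SE 0.332, limma adjusted p = 0.325). Ercc1 rose in ocular neurons, from 28.8, 30.1, 48.5 and 85.2 to 71.3, 77.1, 87.9 and 127, with groups that overlapped (1.01, SE 0.286, limma adjusted p = 0.0267).

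**Figure D4:**
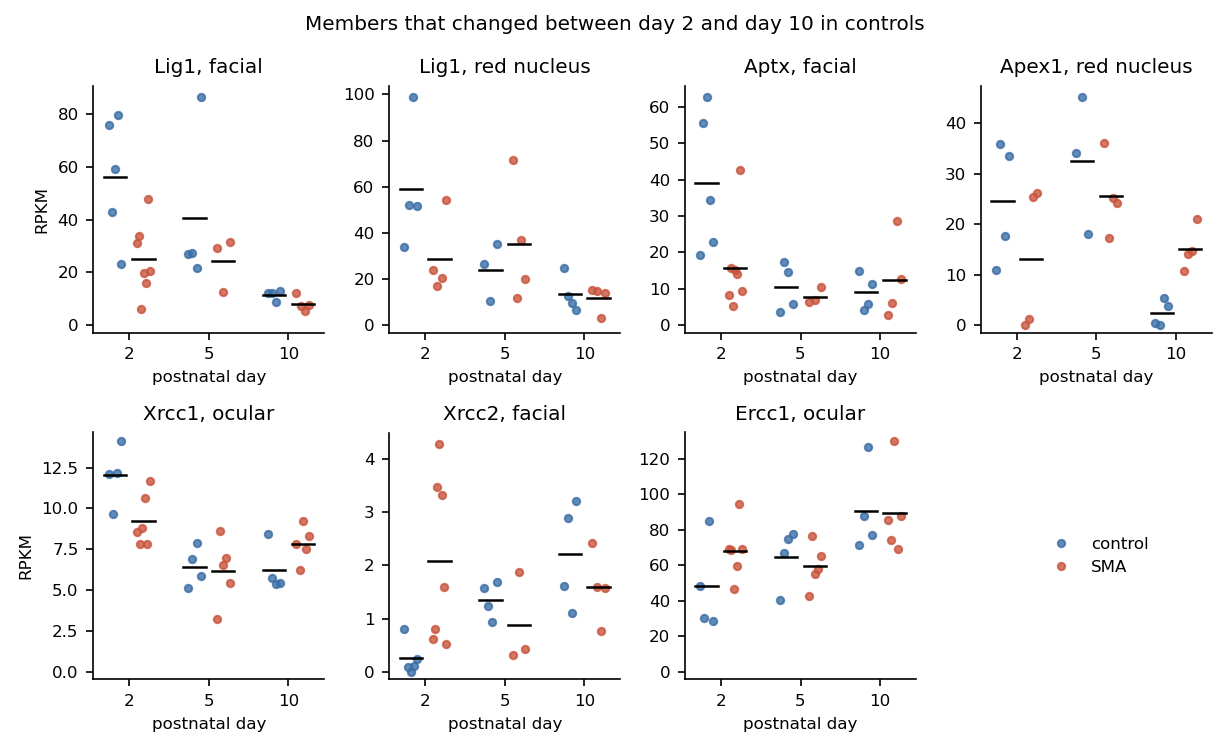
RPKM in each mouse at days 2, 5 and 10 for the 7 combinations of gene and population called between day 2 and day 10 in controls, with a black line at each group's mean. Control mice of day 2 and day 10 are apart in every panel but that of Ercc1, and at day 10 the red nucleus SMA mice lie above the controls for Apex1.

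Other values moved with age in the same samples. The sum of 9 oligodendrocyte markers went from 32.4 to 66.9 RPKM at day 2 to 244 to 291 at day 10 in facial controls, and from 27.8 to 43.6 to 333 to 676 in the red nucleus, where the sum of 7 astrocyte markers went from 624 to 982 to 1467 to 1849. In ocular controls, where Xrcc1 and Ercc1 were called, the oligodendrocyte sum went from 30.7 to 44.0 to 369 to 518. The cycling cell markers overlapped, at 9.67 to 28.2 and 7.17 to 19.8 in facial neurons and at 3.80 to 18.1 and 2.07 to 19.7 in the red nucleus. The part of the other cells in these changes was not tested. Library numbers in the labels were 86 to 211 for control libraries of day 2 and 213 to 258 for those of day 10, so age and the order of library numbers, whose meaning is not stated, cannot be told apart. Aptx, Xrcc1, Xrcc2 and Ercc1 each lost their call in 4 to 7 of the 27 or 28 fits that left out 1 mouse, and the call count fell from 7 to 3 without control mouse 252, while Lig1 was called in all of its fits.

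A test within each population asked whether the genotype difference itself depended on age. None of 241 member tests was called by limma, beside 0.0344% of all tests, and 10 had an unadjusted p under 0.05, beside 6.48% of all tests. Across populations at day 10 none of 44 member rows was called, beside 0.579% of all genes, and 2, Polk and Atr, had an unadjusted p under 0.05, beside 6.26% of all genes.

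In control mice the populations differed in 12 of 44 member rows by limma's F test over the 6 populations, beside 42.5% of all genes. They were Bard1, Parp1, Xrcc5, Rrm2b, Polk, Chek2, Ercc5, Xrcc3, Ddb1, Xrcc1, Lig3 and Trp53bp1. The strongest evidence was for Bard1, the partner of Brca1 in a ubiquitin ligase of homologous recombination (limma adjusted p = 2.14e-25). Bard1 had 3.88 to 6.46 RPKM in the 11 vagus control mice (median 5.27). In the other 61 control samples it reached at most 4.94, and only 1 of them, an ocular sample, was above the lowest vagus mouse. Means were 5.41 ± 0.758 in vagus, 1.43 ± 1.37 in ocular, 0.695 ± 0.502 in hypoglossal, 0.648 ± 0.719 in lumbar, 0.349 ± 0.600 in facial and 0.104 ± 0.151 in red nucleus neurons. The ocular mean lies below the vagus mean by more than the SD of either, while from hypoglossal to facial neighbouring means differ by less than either SD. The sum of 7 astrocyte markers was 366 to 799 RPKM in vagus controls and 624 to 2097 in the other control samples. It overlapped only with red nucleus samples: the lowest value in the other motor populations was 1045, in lumbar neurons. The sum of 8 microglia markers was 14.0 to 72.8 and 0.605 to 65.1, and that of 9 oligodendrocyte markers 45.3 to 127 and 27.8 to 1231, so both overlapped. The part of these sums in the Bard1 values was not tested.

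Bard1 has a single annotated transcript of 5659 bases at chr1:71027498-71103146, and its values came out as whole reads in all 168 libraries, within 0.05 of a read. Vagus control libraries held 97 to 298 Bard1 reads (median 188), and red nucleus control libraries 0 to 23 (median 1). SMA samples, which entered the filter and the variance of the same fit, had 2.37 to 12.4 RPKM in 14 vagus samples (median 6.16), and at most 3.13 in the other 74, with 1 ocular sample above the lowest vagus sample. Brca1, its partner, averaged 0.388 RPKM over control samples.

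Red nucleus neurons were compared with the mean of the 5 motor populations in controls. Of 44 member rows 7 were called, all lower in the red nucleus, beside 20.8% of all genes called in either direction and 12.2% called lower. Besides Bard1 (-0.94, SE 0.148, limma adjusted p = 9.32e-08) they were Xrcc3 (-1.02), also of homologous recombination, Rrm2b (-0.80), Polk (-0.57), Ercc5 (-0.56), Rnf168 (-0.40), a histone ubiquitin ligase, and Parp1 (-0.32), which senses strand breaks. Xrcc3 had a median of 0.568 RPKM in the red nucleus (0 to 12.4, n = 11) and medians of 2.23 to 4.39 in the motor populations. Rrm2b had 0.641 to 3.72 in the red nucleus and 2.51 to 11.7 in vagus neurons. For Xrcc3 and Rrm2b the ranges of the populations overlap. By mean, Bard1, Xrcc3, Rrm2b, Rnf168 and Ercc5 were lowest in the red nucleus, Ercc5 with 3.64 RPKM beside 3.66 in lumbar neurons. Polk and Parp1 were not: Polk averaged 1.17 in the red nucleus and 1.13 in lumbar neurons. Parp1 averaged 18.8 in the red nucleus and 14.4 in vagus neurons. Under quantile normalization Polk, Ercc5 and Rnf168 were not called, and without control mouse 247 the count of 7 fell to 3.

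Vagus neurons stood at an end of the order for other members too. Rrm2b was highest there (6.27 ± 3.15 RPKM, n = 11), Parp1 lowest (14.4 ± 4.09, beside 18.8 ± 5.26 in the red nucleus and 30.0 ± 5.03 in lumbar neurons) and Xrcc5, the other Ku subunit, lowest as well (5.70 ± 3.53, beside 7.81 ± 3.93 in ocular neurons). For Rrm2b and Xrcc5 the nearest population differed by less than either SD, and for Parp1 by about as much.

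Ocular neurons, which are known as relatively spared in SMA, and lumbar neurons, which are known as vulnerable, differed in 3 of 44 member rows in controls, beside 14.5% of all genes, and 2 of them were lower in ocular neurons, beside 8.09%. Xrcc5 was lower in ocular neurons (2.06 to 15.6 RPKM, median 7.94, n = 12) than in lumbar neurons (7.37 to 21.6, median 14.2, n = 13), with a difference of -0.87 (SE 0.221, limma adjusted p = 0.00211). Lig3, the mitochondrial and nuclear ligase that partners Xrcc1, was lower too, with medians of 0.864 and 2.44 (-1.01, SE 0.305, limma adjusted p = 0.0119), and it shares 25.1% of its exon bases with Rffl on the opposite strand. Xrcc1 was higher in ocular neurons (means 8.24 ± 3.12 and 5.43 ± 1.92, 0.50, SE 0.180, limma adjusted p = 0.0429), a call that ended in 9 of 34 fits without 1 mouse and under 3 of 9 other settings. The ranges overlapped for all 3 genes.

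**Figure D5:**
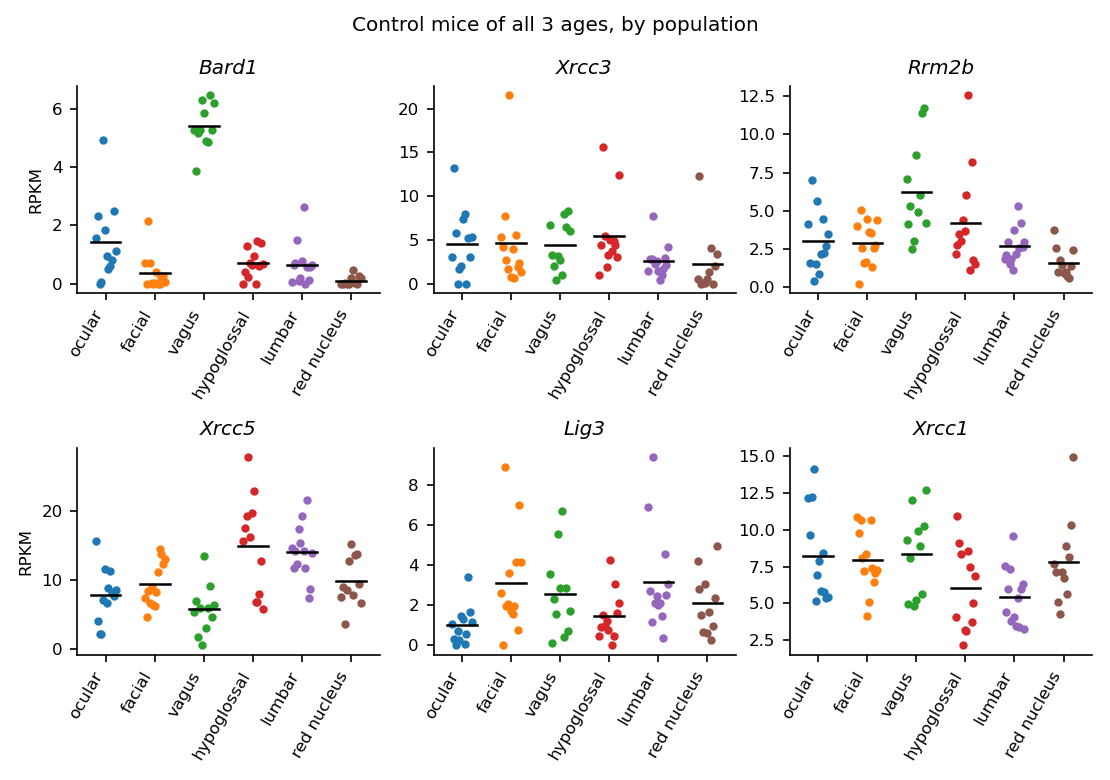
RPKM in each control mouse, all 3 ages together, by population, for 6 members called between populations, with a black line at each mean. Bard1 is at 3.88 to 6.46 in vagus neurons and at most 4.94 elsewhere, while the populations overlap for the other 5 genes.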

How the data were processed

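The authors deposited 1 table of RPKM with 168 libraries as columns. Per the submitters' processing notes, STAR 2.4.1c and the builds mm10 and hg19 were used. The counter, annotation and strand setting are not given in the sources used here. Per the labels, reads of an earlier deposit were added for 5 lumbar control libraries of day 5.

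RPKM of libraries of the same mouse and population were averaged (8 of 160 samples). Depth was estimated from the RPKM steps of 17340 genes with a single transcript in GENCODE M21 (GRCm38), which also gave positions. Log2(RPKM + 1) was tested with limma 3.58.1 (R 4.3.3, eBayes with a trend, two-sided), in a fit per population and in a joint fit, for genes with at least 1 RPKM in as many samples as the smallest group, with Benjamini-Hochberg adjustment within each contrast (threshold 0.05). The fits were tested on simulated data.

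Values per mouse are given for members called in SMA against control and for up to 8 called with age, levels for the 5 highest and 5 lowest rows, populations for the 6 members with large red nucleus or ocular differences, and values of other pathway genes called in SMA. Any other member with values was picked with those values in view. The members and lists were chosen with earlier results of these data known. Mouse numbers in the labels mark 1 animal across populations. Deviations from group means had a median correlation of 0.033 between samples of the same mouse (339 pairs) and -0.0064 between different mice, and a fit with the mouse as a block was an alternative, beside those named at the end.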

Additional observations from a re-analysis of the deposited data

Results flagged for a closer look

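A mouse far from the rest of its group (the gap to its nearest neighbour over the group's range was above Dixon's 95% critical value) was found in 6 of 62 groups of 4 or more mice whose values are given above. Chance flags about 1 group in 20 if values are normally distributed, which was not tested for these RPKM.

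Polk was at 9.21 RPKM in facial SMA mouse 206 at day 2, beside 2.18 to 4.28 in the other 6 mice, and this library, with 1.44 M reads, was the second shallowest. Facial control mouse 29 at day 5 had a Polk level of 10.5, beside 0.884 to 1.77 in the other 3. Lig1 was at 86.4 in facial control mouse 75 at day 5, beside 21.8 to 27.5, and at 3.19 in red nucleus SMA mouse 249 at day 10, beside 14.0 to 15.5. Aptx was at 42.7 in facial SMA mouse 209 at day 2, beside 5.25 to 15.8. Xrcc1 was at 8.45 in ocular control mouse 247 at day 10, beside 5.36 to 5.76.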

How the results depend on the processing

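The count of member rows called in SMA against control, 1, was 0 without a filter on low values and with a pseudocount of 0.1, 2 with only the 2 groups compared in each fit, and 0 to 2 over 34 fits that each left out 1 mouse. Leaving out 1 mouse gave 3 to 9 calls between day 2 and day 10 (7) and 3 to 8 for the red nucleus against motor neurons (7). The other counts stayed within 1.5 times under each setting run (pseudocount, filters, quantile normalization, libraries as samples, eBayes without a trend or robust, and, chosen after seeing the data, without the 2 shallowest libraries). With the mouse as a replicate block (consensus correlation 0.0366), the joint fit gave the same counts: 12 rows between populations, 7 for the red nucleus, 3 for ocular against lumbar and 0 for genotype by population. No block could be fitted within a population, where each mouse appears once. For 24 single results, no direction was reversed, and in 214 fits other than leaving out a mouse 26 lost their call and 1 gained it. Depth limits members under 1 RPKM most.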
